A study of Mus musculus with 6 samples.

Results

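The 5 genes Acta2, Tagln, Myh11, Mylk and Postn were taken by symbol, ignoring case, from the deposited expression table, and all 5 were found among its 10191 genes. All 5 passed the filter on low values, which left 10004 genes to test. The table holds bulk RNA sequencing of mouse lung tumours, and all animals were read as sharing 1 engineered genotype. Home-cage controls gave 3 libraries (Ctrl, n = 3), and the other 3 came from mice in the SD cage (SD, n = 3), letters that the labels leave unexplained in a series whose title speaks of sleep deficiency. SD mice spent 20 h a day in that cage, from 14:00 to 10:00, over the 7 weeks that followed virus injection. Lights were on from 8:00 am to 8:00 pm for the mice. No source here names the virus, the age of the mice or the hour of tissue collection. The labels call the samples biological replicates without saying that each is a separate animal. The p-values thus concern only the spread between these samples, and the main test (limma) estimates that spread partly from the other tested genes.

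Smooth muscle cells shorten when calcium, bound to calmodulin, activates myosin light chain kinase, which phosphorylates the light chains of myosin so that its heads pull on actin filaments. Acta2 encodes smooth muscle alpha-actin of those filaments, Tagln the actin-binding protein transgelin (SM22), and Myh11 the smooth muscle myosin heavy chain. Mylk encodes the kinase, and from other start sites in the same gene a long form made in endothelium and other nonmuscle cells and the short protein telokin, which counts per gene do not separate. Postn encodes periostin, a secreted matrix protein that binds integrins and is made by fibroblasts in injured and growing tissue. It has no contractile role, so of the 5 genes only the other 4 belong to the contractile machinery by function. In lung the contractile genes mark airway and vascular smooth muscle, and Acta2 and Tagln also mark myofibroblasts and some pericytes.

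The 3 filament genes were higher in SD and the other 2 genes lower. Acta2, Tagln and Myh11 stood 2.93, 2.75 and 2.74 times above the control mean in CPM (reads of the gene per 1000000 reads of the library), whereas Mylk was 1.205-fold and Postn 1.43-fold lower. In none of the 5 genes did the values of the groups overlap. All 5 passed limma's moderated test on log2(CPM + 1) with Benjamini-Hochberg adjustment over all tested genes at 0.05. That test also called 56.6% of all tested genes, 28.1% as higher and 28.5% as lower, and groups without overlap were found in 60.3% of tested genes (30.0% higher in SD and 30.4% lower), so a call or a lack of overlap is common in these data. The size of the filament genes' difference was less common, since 9.56% of tested genes were called higher with a ratio of at least 2 and 5.20% had a ratio of at least 2.7. In bulk tissue, fewer cells of a type and less RNA per cell cannot be told apart.

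Promoter sequences show what lies just before the start sites of genes that went opposite ways. RefSeq, on GRCm38.p6, gave a window for Acta2 and Mylk and 2 for Postn, which has 2 annotated starts. The promoter set used here held none for Tagln or Myh11, so Acta2 is the sole filament gene shown. The 250 bases before the start are given 5′ to 3′ on the gene's own strand for Acta2 (chr19:34255374-34255623, minus strand), Mylk (chr16:34784700-34784949, plus strand) and the downstream start of Postn (chr3:54360857-54361106, plus strand). The Mylk window lies inside the annotated gene, which begins at chr16:34745210, and which form of Mylk starts there was not determined. Most of the Acta2 window, with all its marked motifs, also lies inside the annotated gene. On the minus strand that gene begins at chr19:34255590. Capitals mark matches to the motifs described next.
Acta2: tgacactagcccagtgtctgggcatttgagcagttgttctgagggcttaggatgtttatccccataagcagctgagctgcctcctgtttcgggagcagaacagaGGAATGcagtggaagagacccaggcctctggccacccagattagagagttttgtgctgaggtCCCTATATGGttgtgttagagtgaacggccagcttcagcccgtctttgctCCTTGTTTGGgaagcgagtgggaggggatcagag
Mylk: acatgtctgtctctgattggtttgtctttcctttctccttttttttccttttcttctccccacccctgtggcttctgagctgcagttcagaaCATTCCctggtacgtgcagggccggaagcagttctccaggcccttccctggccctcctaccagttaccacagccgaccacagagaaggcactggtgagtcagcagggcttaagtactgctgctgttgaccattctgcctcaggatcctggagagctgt
Postn: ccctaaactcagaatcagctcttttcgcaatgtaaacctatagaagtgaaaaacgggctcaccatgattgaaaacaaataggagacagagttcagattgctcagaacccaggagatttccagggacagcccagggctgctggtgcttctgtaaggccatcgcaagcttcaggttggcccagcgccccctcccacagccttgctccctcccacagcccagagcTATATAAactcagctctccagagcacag
The motifs were the CArG box, the DNA element of serum response factor (SRF) that controls smooth muscle genes, CATTCC, the core of the TEAD factor element, and TATATAA, a form of the TATA box. They were chosen after these letters were seen and were searched on both strands. The Acta2 window held 2 CArG-like elements, meaning CArG boxes with 1 G or C inside the A/T core. They were CCCTATATGG, 84 to 75 bases before the start, and CCTTGTTTGG, 34 to 25 bases before it. A CArG or CArG-like element was present in 8.60% of 32817 promoter windows, and a CArG box without that mismatch in 1.47%. Acta2 also held CATTCC on the opposite strand, read as GGAATG 146 to 141 bases before the start. Mylk held CATTCC 158 to 153 bases before the start, and that motif was in 12.6% of windows. The Postn window held TATATAA 28 to 22 bases before the start, as did 3.04% of windows at some position. The window at the upstream start of Postn (chr3:54359017-54359266) held none of these motifs. A match describes letters only, and binding was not measured.

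Library depth ran from 6511192 to 7417095 reads, of which the listed genes hold 84.3 to 86.0%, and 3 reads correspond to between 0.4045 and 0.4607 CPM. Dividing the values by what 1 read is worth in each library gave whole numbers (within 0.01) for 99.8% of values and for every value of the 5 genes. The remaining 124 values lie in 50 genes, all in the first 60 rows of the table. The rows of the table follow the alphabet, apart from 1065 that lie outside the longest alphabetical run, and this check was made after the values had been seen. Beyond the first 60 rows, 953 of 9945 tested genes (9.58%) were out of order, of which 903 were called higher in SD and 7 lower. They include 926 of the 946 genes with a ratio of 2 or more, against 2 of the 878 genes with a ratio of 0.5 or less. The highest ratio of a gene in order was 2.114. Acta2 (row 136, between Acaca and Acad10), Tagln (row 8535, between Stat3 and Stat5a) and Myh11 (row 4955, between Myh10 and Meis3) are out of order, whereas Mylk and Postn are in their alphabetical places. How the rows came into this order was not tested, and the values of Acta2, Tagln and Myh11 below cannot be given apart from it.

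**Figure D1:**
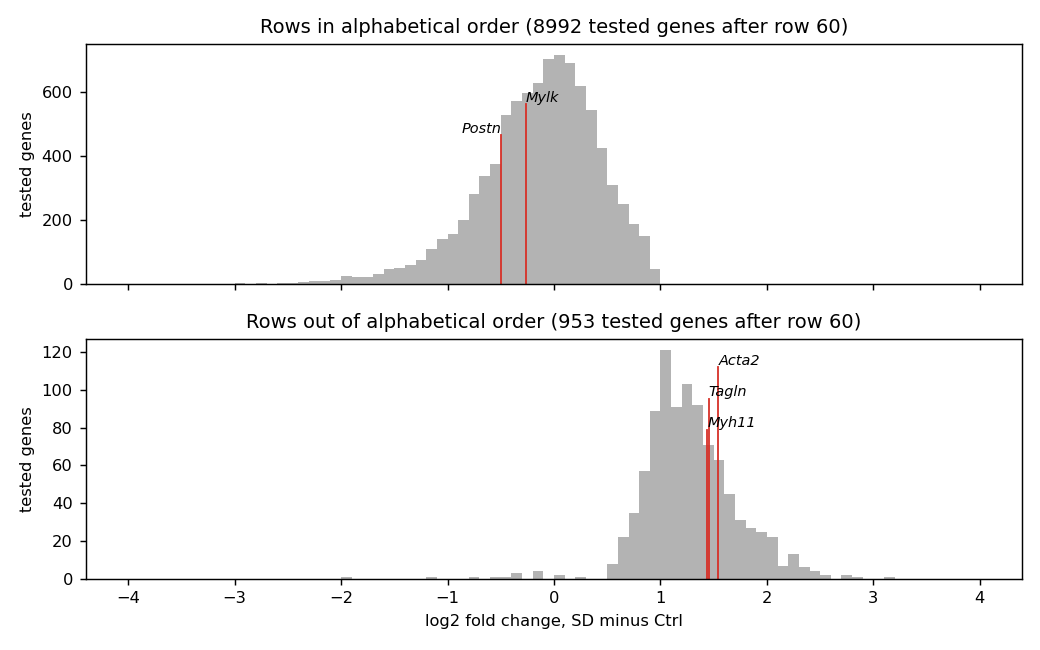
Number of tested genes (vertical axis) by log2 fold change, SD minus Ctrl (horizontal axis), for the 8992 genes in alphabetical order (top) and the 953 out of order (bottom) after row 60, with red lines at the 5 genes. Acta2, Tagln and Myh11 lie among the out-of-order rows, nearly all of which are above 0, and Mylk and Postn lie among the rows in order.

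Acta2 lies on mm10 at chr19:34241090-34255590, on the minus strand, and shares no exon bases with another annotated gene. Its level was 81.6, 98.0 and 92.3 CPM in the 3 control libraries and 258, 278 and 262 CPM in the 3 SD libraries. The lowest SD library was thus far above the highest control, and the libraries within a group lay close together. The means were 90.6 ± 8.35 CPM in Ctrl and 266 ± 10.4 CPM in SD (standard deviation, n = 3 each), and the log2 fold change was 1.54 (standard error 0.066, 95% interval 1.41 to 1.68, limma adjusted p = 1.4e-21). These values rest on 591 to 727 reads per control library and 1679 to 1934 per SD library. By log2 fold change Acta2 was the 226th highest of the 10004 tested genes.

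Tagln lies at chr9:45929619-45936058 on the minus strand. Its exons share 108 bases with Pcsk7 on the opposite strand and 1241 with the antisense gene Gm48529, and reads of these genes cannot be told apart where the counting ignored strand, a setting that no source here states. Pcsk7, a proprotein convertase, was at 20.6 ± 2.82 CPM in Ctrl and 19.3 ± 2.26 CPM in SD (n = 3 each) and did not pass the test (limma adjusted p = 0.65). Tagln was at 145, 131 and 133 CPM in Ctrl and at 366, 374 and 385 CPM in SD. Every SD library was well above every control library. The means were 136 ± 7.22 and 375 ± 9.85 CPM (n = 3 each), a log2 fold change of 1.45 (standard error 0.056, 95% interval 1.34 to 1.57, limma adjusted p = 4.1e-23).

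Myh11, at chr16:14194535-14291372 on the minus strand, had the lowest CPM of the 3 filament genes. It was at 55.6, 44.4 and 47.6 CPM in Ctrl and at 142, 139 and 124 CPM in SD. The groups were again far apart, with the third SD library somewhat below the others. The means were 49.2 ± 5.80 and 135 ± 9.26 CPM (n = 3 each), a log2 fold change of 1.44 (standard error 0.085, 95% interval 1.27 to 1.61, limma adjusted p = 1.8e-17).

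Mylk, at chr16:34745210-35002420 on the plus strand, went the other way by a small amount. Its level was 181, 150.5 and 174 CPM in Ctrl and 146, 135 and 138 CPM in SD. The highest SD library lay just under the lowest control library, so the groups were separate but close. The means were 168 ± 15.96 and 139.7 ± 5.77 CPM (n = 3 each), a log2 fold change of -0.26 (standard error 0.067, 95% interval -0.40 to -0.13, limma adjusted p = 0.001). The antisense genes E130310I04Rik and Gm21691 share 548 and 224 exon bases with Mylk, and their reads cannot be told apart from those of Mylk without strand. A fall of this size was common, since Mylk was the 3320th lowest of 10004 genes by log2 fold change.

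Postn, at chr3:54361109-54391037 on the plus strand, was at 46.0, 62.02 and 49.1 CPM in Ctrl and at 35.9, 36.9 and 36.8 CPM in SD. The controls were spread, with the second library highest, while the SD libraries were nearly equal and all below the controls. The coefficient of variation was 16.2% in Ctrl and 1.40% in SD, the widest and the narrowest spread found among these 5 genes. The means were 52.4 ± 8.50 and 36.5 ± 0.5125 CPM (n = 3 each), a log2 fold change of -0.50 (standard error 0.108, 95% interval -0.72 to -0.28, limma adjusted p = 1.7e-04). Postn was the 2029th lowest of the tested genes.

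**Figure D2:**
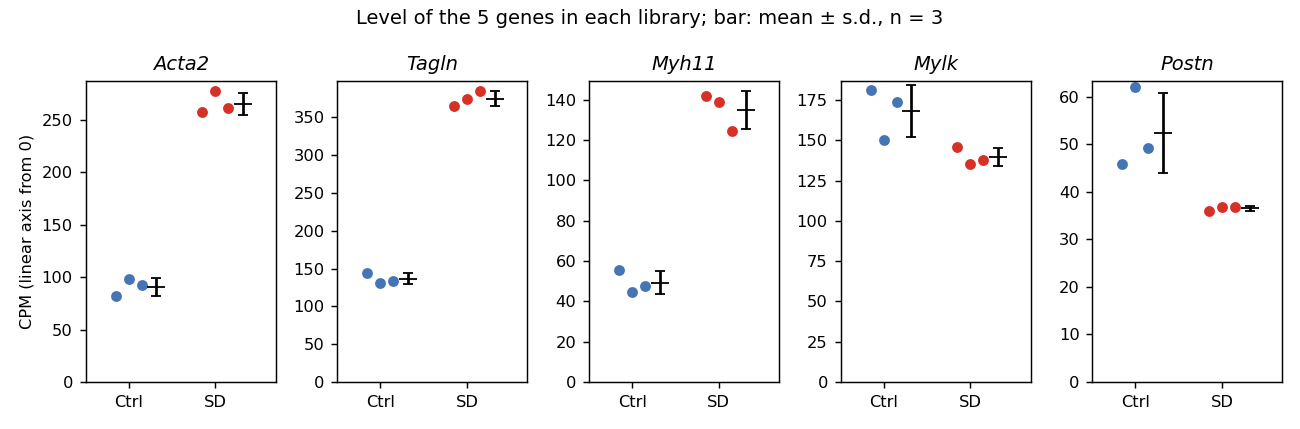
CPM of Acta2, Tagln, Myh11, Mylk and Postn in each of the 3 Ctrl and 3 SD libraries (points), with the mean and standard deviation as bars, n = 3 per group. In each panel the groups do not overlap, with SD above Ctrl for Acta2, Tagln and Myh11 and below it for Mylk and Postn.

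To set genes against each other, CPM was divided by the length of all annotated exons of the gene in kilobases. On this scale the level in Ctrl was 68.6 ± 3.63 CPM per kb for Tagln, 41.3 ± 3.80 for Acta2, 14.95 ± 1.42 for Mylk, 6.47 ± 0.764 for Myh11 and 6.02 ± 0.977 for Postn (n = 3 each). Only the last pair overlapped, with control libraries from 5.84 to 7.32 for Myh11 and from 5.28 to 7.13 for Postn. In SD the level was 189 ± 4.95 CPM per kb for Tagln, 121 ± 4.75 for Acta2, 17.8 ± 1.22 for Myh11, 12.4 ± 0.512 for Mylk and 4.20 ± 0.0589 for Postn, and no neighbours in that order overlapped. Per kb, the level of Myh11 thus stood below that of Mylk in Ctrl and above it in SD.

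Ratios of 1 gene to another within a library were taken as differences in log2(CPM + 1). The log2 ratio of Mylk to Myh11 was 1.76 ± 0.082 in Ctrl and 0.05 ± 0.092 in SD (n = 3 each). That of Postn to Acta2 was -0.79 ± 0.124 in Ctrl and -2.83 ± 0.043 in SD. Neither pair of groups overlapped, and each gave p = 0.10 in a two-sided exact permutation test, the smallest p that 3 against 3 libraries allow (0.13 after Benjamini-Hochberg adjustment over 8 such tests). Both outcomes were fixed by the levels above, since 1 gene of each pair was higher and the other lower without overlap. These 2 tests thus add no further support. Among the filament genes themselves the ratios overlapped between the groups. Acta2 to Tagln ran from -0.82 to -0.42 in Ctrl and from -0.56 to -0.43 in SD on the log2 scale (exact permutation p = 0.70, adjusted 0.80), and Myh11 to Tagln from -1.54 to -1.36 and from -1.62 to -1.36 (exact permutation p = 1).

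The genes with the most alike profiles were sought by the root mean square difference from each gene over the 6 libraries, in log2(CPM + 1) after subtracting the control mean, among 6682 genes with a mean of at least 10 CPM. Nearest to Acta2 were Gpm6a (difference 0.031), Rsph9 (0.045) and Cox4i2 (0.057), and Tagln came 57th and Myh11 130th. Nearest to Tagln were Cuedc1 (0.044), Adcy4 (0.046) and the cardiac actin gene Actc1 (0.056), with Myh11 33rd and Acta2 87th. Nearest to Myh11 were Tspan13 (0.039), Fam84a (0.044) and Arap3 (0.060), with Tagln 7th and Acta2 135th. For each filament gene, other genes were thus nearer than either of its fellow filament genes. These neighbours all had ratios above 2.114, the highest of a gene in order, so they sit in rows out of order. With the control mean subtracted, nearness follows mainly the size of the SD difference and adds no separate evidence. Cuedc1 and Fam84a were low in Ctrl (4.98 and 5.03 CPM), where the added 1 CPM weighs most. They reached a mean of 10 CPM only through SD (15.55 and 15.31 CPM). Their ratios of mean CPM were 3.12 and 3.05, above those of Tagln and Myh11. Nearest to Mylk were Slc39a1 (0.026) and Arpc4 (0.033), and nearest to Postn were Irs2 (0.075), Gucd1 (0.076) and Anxa5 (0.077). Postn was 2571st from Mylk and Mylk 1640th from Postn, at a difference of 0.270, whereas the filament genes were 6436th to 6493rd from Mylk at differences of 1.21 to 1.29.

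Among the genes of the contractile filaments and their anchors (30 genes, all tested, Acta2, Tagln and Myh11 included), 14 were higher in SD, 5 lower and 11 did not pass. Of all tested genes, 28.1% were higher and 28.5% lower. The median log2 fold change was 0.44, and 0.20 over the 27 genes other than those 3, against -0.01 over all tested genes. Without the rows out of alphabetical order, 4 of 20 genes were higher and 5 lower, where 20.3% of all such genes were higher and 31.2% lower, so the higher share was then near that background. Calponin (Cnn1), which binds actin and slows myosin, was at 20.7 ± 1.19 CPM in Ctrl and 67.8 ± 5.19 CPM in SD, a 3.27-fold difference (n = 3 each, limma adjusted p = 5.7e-16). Tpm2, a tropomyosin of the thin filament, was 2.44-fold higher (adjusted p = 7.7e-20), smoothelin (Smtn) 2.57-fold (2.2e-17), the LIM protein gene Fhl1 2.14-fold (1.2e-20) and the intermediate filament gene desmin (Des) 2.21-fold (4.1e-17). Actg2, the gene of enteric smooth muscle gamma-actin, was 1.51-fold higher (adjusted p = 1.7e-07).

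Other genes of the same machinery did not rise with them. Csrp1, a LIM protein gene of smooth muscle, was 2.01-fold lower (413 ± 14.0 to 205 ± 6.37 CPM, n = 3 each, limma adjusted p = 2.8e-19), the tropomyosin gene Tpm1 1.62-fold lower (5.7e-17) and the actin crosslinker Actn1 1.56-fold lower (9.5e-15). The laminin receptor subunit Itga7 was 1.81-fold lower (2.9e-07) and the anchor protein gene vinculin (Vcl) 1.25-fold lower (3.1e-04). Myl9, the regulatory light chain that Mylk's kinase phosphorylates, was at 744 ± 14.6 CPM in Ctrl and 713 ± 28.1 CPM in SD and did not pass (adjusted p = 0.21). Myl6, the other light chain, was at 2222 and 2360 CPM (adjusted p = 0.099), and caldesmon (Cald1) at 29.7 and 29.8 CPM (0.96).

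Of 29 tested genes that set light chain phosphorylation or calcium, Mylk among them, 12 were higher, 9 lower and 8 did not pass, with a median log2 fold change of 0.18. The lower share is near the 28.5% found over all tested genes, of which 28.1% were higher. Without the rows out of order, 8 of 25 were higher and 8 lower, against 20.3% and 31.2% of all such genes. Ppp1r14a, the inhibitor of myosin phosphatase called CPI-17, was at 28.8 ± 3.31 CPM in Ctrl and 116 ± 8.02 CPM in SD, 4.03-fold higher (n = 3 each, limma adjusted p = 4.2e-20). The phosphatase's targeting subunit Ppp1r12a was 1.79-fold higher (2.0e-15), the guanine nucleotide exchange factor Arhgef12 2.09-fold (7.0e-17) and the cGMP-dependent kinase Prkg1 2.998-fold (2.2e-10). Beside Mylk, the lower genes were Rgs5, an inhibitor of G protein signals (4.84-fold, 7.1e-06), the L-type calcium channel subunit Cacna1c (1.42-fold, 7.4e-05), Arhgef11 (1.53-fold, 2.2e-05), the calmodulin gene Calm3 (1.26-fold, 3.0e-06), and the kinases Rock1 (1.17-fold, 0.0018) and Rock2 (1.15-fold, 0.0097). Rock2 lost its call without the second control (adjusted p = 0.055) or the second SD library (0.074). The calls of Dapk3 (adjusted p = 0.047) and Pde5a (0.046) were also lower and were lost under several alternatives.

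**Figure D3:**
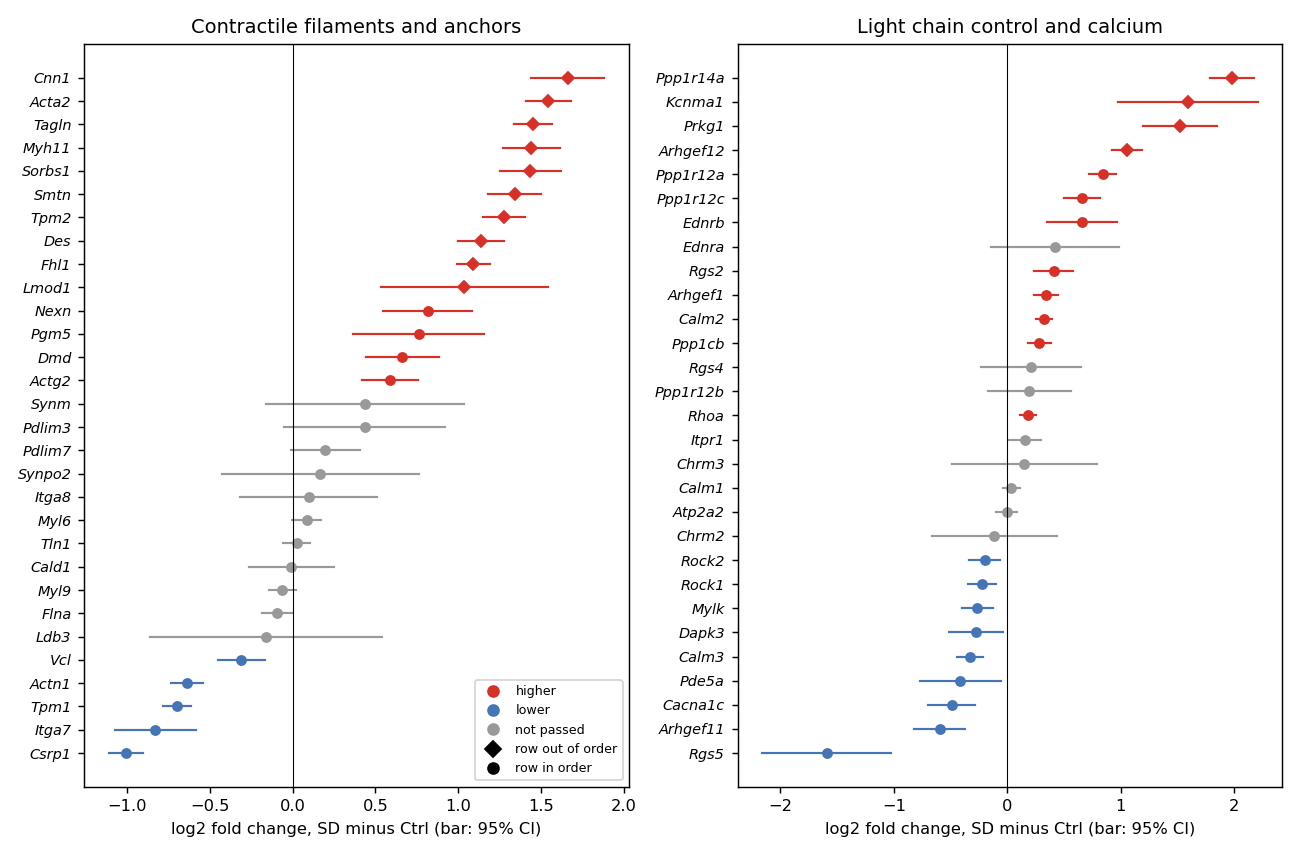
Log2 fold change (SD minus Ctrl, points) with its 95% interval (bars) for the 30 contractile filament genes (left) and the 29 light chain and calcium genes (right), coloured by call, with diamonds for rows out of alphabetical order. Cnn1, Acta2, Tagln and Myh11 lie at the top on the left and Csrp1 and Itga7 lowest, while Ppp1r14a is at the top on the right and Mylk lies among the small lower calls.

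Of 18 tested genes for SRF, its coactivators and mesenchymal regulators, 10 were higher and 3 lower, with a median log2 fold change of 0.64. The shares over all tested genes were 28.1% higher and 28.5% lower. Without the rows out of order, 3 of 11 were higher and 3 lower, near the 20.3% and 31.2% of all such genes. Srf itself was at 108 ± 14.0 CPM in Ctrl and 108 ± 6.53 CPM in SD (n = 3 each, limma adjusted p = 0.88). Its coactivators differed in direction, Mrtfb being 2.33-fold higher (1.0e-10) and Mrtfa 1.37-fold lower (0.0096), a call that was lost without the first control (0.059). The TEAD factor Tead1 was 2.30-fold higher (7.3e-17), the lung mesenchyme factors Tbx2 and Foxf1 3.62-fold (1.4e-28) and 2.17-fold (1.7e-18), and the Notch target Hey1 2.14-fold (1.4e-15). Smad3, which carries TGF-beta signals, was 1.76-fold lower (0.0015), and Gata6 1.25-fold lower (0.0043), a call lost without the second control (0.055).

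The families of the filament genes were also divided differently, in shares of CPM chosen after the values had been seen. Acta2 made up 1.18 ± 0.106% of the CPM of 6 actin genes in Ctrl and 6.96 ± 0.239% in SD (n = 3 each). The most abundant actins moved down, beta-actin (Actb) by 2.14-fold (5334 ± 80.8 to 2495 ± 104.6 CPM, limma adjusted p = 9.0e-27) and cytoplasmic gamma-actin (Actg1) by 2.52-fold (9.5e-28). Skeletal actin (Acta1) was 3.94-fold lower (5.6e-18) and cardiac actin (Actc1) 2.85-fold higher (3.4e-18). Actin genes are near identical in coding sequence and the counting could split reads between them, so their separate values are uncertain.

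Myh11 made up 3.62 ± 0.387% of the CPM of smooth and nonmuscle myosin heavy chains in Ctrl and 13.6 ± 0.781% in SD (n = 3 each). The nonmuscle genes Myh9 and Myh14 were 1.66-fold (limma adjusted p = 3.6e-18) and 2.53-fold (3.5e-19) lower, while Myh10, another nonmuscle gene, was 2.32-fold higher (5.8e-18). Tagln made up 16.1 ± 0.735% of the 3 transgelin genes in Ctrl and 36.35 ± 1.51% in SD, with Tagln2 1.09-fold lower (adjusted p = 0.018, a call lost when any of 4 libraries was left out, with adjusted p from 0.056 to 0.13). Cnn1 made up 3.36 ± 0.189% of the 3 calponin genes in Ctrl and 12.8 ± 0.777% in SD, with Cnn2 1.91-fold lower (4.9e-19) and Cnn3 1.81-fold higher (1.1e-14). None of the 4 shares overlapped between the groups, and each gave p = 0.10 in a two-sided exact permutation test, the smallest possible (adjusted 0.13). These outcomes followed from the levels of the single genes, so the 4 tests add no further support. Over the list of nonmuscle motor and paralog genes, which also holds Postn and its paralog Tgfbi, 7 of 23 tested genes were higher and 15 lower. The higher share is near the 28.1% found over all tested genes, of which 28.5% were lower. Beside Myh10 and Cnn3, the higher genes were Tagln3 (4.95-fold, limma adjusted p = 1.4e-04), the focal adhesion gene Zyx (1.43-fold, 3.8e-06), vimentin (Vim, 1.13-fold, 7.2e-06), the light chain gene Myl12a (1.48-fold, 0.0025) and the filamin gene Flnc (1.625-fold, 0.029). Tagln3 was very low in Ctrl (0.735 CPM, from 0.427 to 1.10) and passed the filter only through SD (3.64 CPM). Its log2 fold change with the added 1 CPM was 1.42, and its row is out of order. Flnc lost its call when any of 4 libraries was left out, with adjusted p from 0.051 to 0.11.

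**Figure D4:**
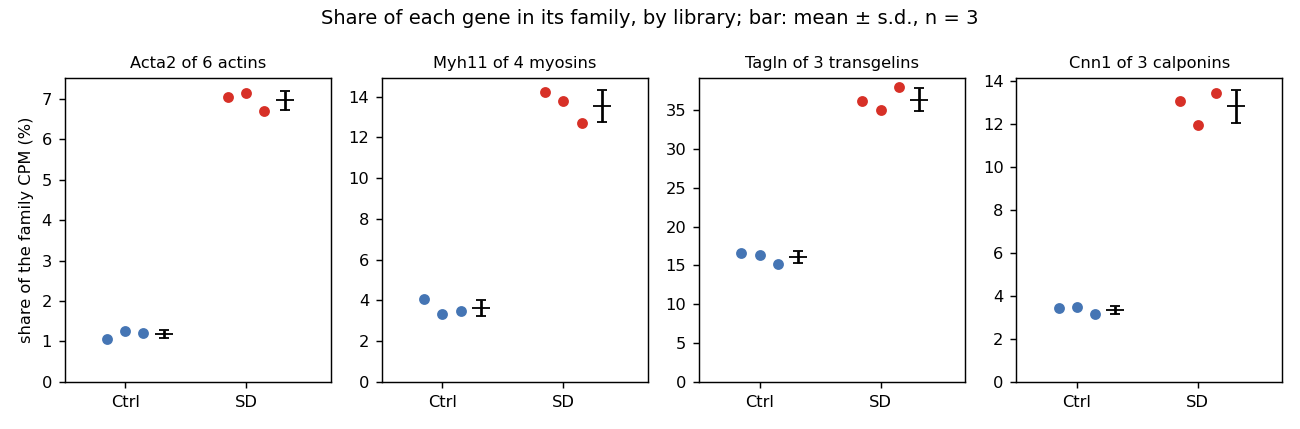
Share of Acta2 among 6 actins, Myh11 among 4 myosin heavy chains, Tagln among 3 transgelins and Cnn1 among 3 calponins, in percent of the family's CPM for each library (points), with the mean and standard deviation (bars, n = 3). Each share is higher in all 3 SD libraries than in any control library.

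Postn fell together with other matrix genes. Of 34 tested fibroblast and matrix genes, Postn included, 16 were lower, 6 higher and 12 did not pass, with a median log2 fold change of -0.34. For comparison, 28.5% of all tested genes were lower and 28.1% higher. Without the rows out of order, 16 of 30 were lower and 2 higher, against 31.2% and 20.3% of all such genes. Tgfbi, the paralog of Postn, was at 170.2 ± 8.48 CPM in Ctrl and 64.7 ± 4.78 CPM in SD, 2.63-fold lower (n = 3 each, limma adjusted p = 9.2e-19). Sparc, a collagen-binding matrix protein, was 1.96-fold lower (3.5e-23), and the fibrillar collagens Col1a1 and Col3a1 were 1.49-fold (1.1e-12) and 1.48-fold (1.1e-13) lower. The 6 higher genes were the growth factor receptor Pdgfra (3.54-fold, 4.6e-23) and the transcription factor Tcf21 (3.52-fold, 1.6e-21), both marks of resident lung fibroblasts, Mfap2 (3.41-fold, 5.7e-19), Fap (2.93-fold, 8.8e-05), Spon1 (1.47-fold, 6.6e-06) and Col5a1 (1.22-fold, 0.043), the last of which lost its call under several alternatives. Fibronectin (Fn1) was at 316 ± 6.93 and 329.9 ± 14.9 CPM and did not pass (0.33).

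In the TGF-beta pathway, which drives Acta2 and Postn in myofibroblasts, 7 of 20 tested genes were higher and 8 lower, and the median log2 fold change was 0.00. Across all tested genes the shares were 28.1% higher and 28.5% lower. Without the rows out of order, 3 of 16 were higher and 8 lower, against 20.3% and 31.2% of all such genes. The ligand gene Tgfb1 was at 266 ± 8.78 CPM in Ctrl and 267.5 ± 6.82 CPM in SD (n = 3 each, limma adjusted p = 0.91). The accessory receptors Tgfbr3 and endoglin (Eng) were 7.54-fold (1.3e-26) and 4.38-fold (9.0e-28) higher. The endothelial receptor Acvrl1 was 3.04-fold higher (2.3e-25), and the inhibitor Smad7 2.45-fold (5.7e-19), and all 4 of these genes sit in rows out of order. The other higher genes were Ltbp4 (1.36-fold, 1.3e-07), Skil (1.46-fold, 1.3e-05) and Smad4 (1.28-fold, 1.2e-04). Among the lower genes were Ltbp3, which stores the latent ligand in the matrix (1.69-fold, 5.5e-13), the signalling receptors Tgfbr1 (1.79-fold, 4.9e-09) and Tgfbr2 (1.22-fold, 4.7e-04), and the ligand Tgfb3 (1.63-fold, 6.8e-06).

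Markers of other cells that hold contractile genes moved too. Of 14 tested pericyte genes, a list that holds Postn, 9 were higher and 3 lower, and the summed level of the list ran from 207.9 to 216.8 CPM in Ctrl and from 414.1 to 448.9 CPM in SD. As background, 28.1% of all tested genes were higher and 28.5% lower. Without the rows out of order, 2 of 7 were higher and 3 lower, against 20.3% and 31.2% of all such genes. Pdzd2 (4.20-fold, limma adjusted p = 1.1e-22), Cox4i2 (3.08-fold, 1.2e-14), Trpc6 (2.59-fold, 3.2e-10) and Notch3 (2.59-fold, 1.3e-08) were higher. Pdzd2 alone, at 37.1 CPM in Ctrl and 155.9 CPM in SD, held the largest part of the rise in the summed level. The defining pericyte receptor Pdgfrb was at 15.3 ± 2.87 and 14.2 ± 1.01 CPM (n = 3 each, adjusted p = 0.69), while Rgs5 and Anpep were lower, at 5.50 and 5.53 CPM in Ctrl against 1.14 and 1.03 CPM in SD.

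Marker lists of other cells moved as well, in data where 28.1% of all tested genes were higher and 28.5% lower. All 14 tested genes of ciliated cells were higher (summed level 391 to 402 CPM in Ctrl, 1519 to 1539 CPM in SD), with Tppp3 at 3.83-fold (limma adjusted p = 2.2e-30) and Foxj1 at 3.57-fold (5.0e-23), and all 14 sit in rows out of order. Of 16 endothelial genes 13 were higher and 1 lower (1270 to 1326 against 3415 to 3549 CPM). Without the rows out of order 7 of 10 were higher and 1 lower, against 20.3% and 31.2% of all such genes. Ramp2 was 4.89-fold higher (4.9e-32), Tie1 2.62-fold higher (3.0e-26) and Aplnr 2.10-fold lower (2.1e-04). All 8 tested genes of type 2 alveolar cells were lower (5119 to 5632 against 1383 to 1469 CPM), among them the surfactant protein genes Sftpc (3.42-fold, 1.0e-30) and Sftpb (6.06-fold, 1.7e-30), and none of them is out of order. Of 7 macrophage genes 5 were lower, with Atp6v0d2 at 6.015-fold (1.3e-25) and Ctss at 4.53-fold (8.3e-18), and Csf1r was 1.415-fold higher (3.1e-05). All 4 tested airway club and basal genes were higher, with Aldh1a1 at 3.06-fold (2.9e-28) and Sox2 at 5.09-fold (9.2e-22), and 3 of the 4 sit in rows out of order. The other 9 of the 13 listed genes had no values. Krt5 lost its call under several alternatives, among them DESeq2 (adjusted p = 0.076), and Cyp2s1 lost its call without the second control (limma adjusted p = 0.066). The 2 mesothelial genes tested moved apart, Upk1b 3.47-fold higher (1.8e-06) and Krt19 1.198-fold lower (0.0045). Their part in the values of the 5 genes was not tested.

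**Figure D5:**
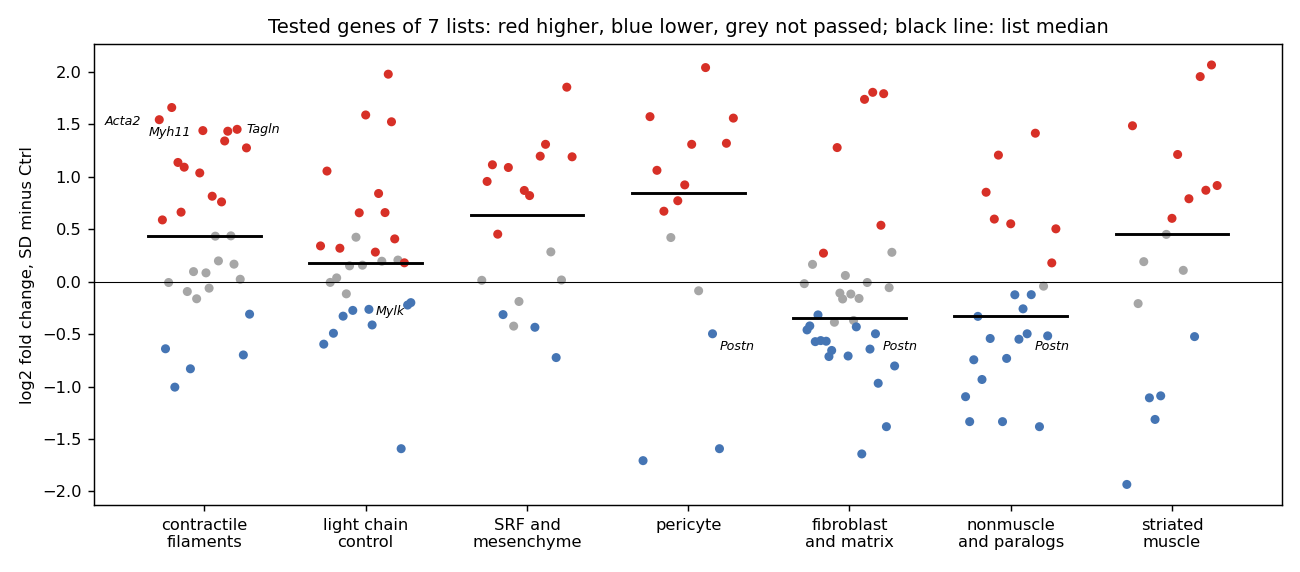
Log2 fold change (SD minus Ctrl) of the tested genes in 7 lists, coloured by call, with the list median as a line and the 5 genes named. Acta2, Tagln and Myh11 lie in the upper part of the contractile list, which has members on both sides of 0, and Postn lies among the lower matrix genes.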

How the data were processed

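RNA was extracted from the tumours with TRIzol and made into libraries with a NEBNext Ultra kit from 1.5 ug, per the labels' protocols. HISAT2 2.0.5, featureCounts 1.5.0-p3 and mm10 are named in the submitters' processing notes, with no strand setting. The deposited table holds CPM values for 10191 genes in 6 libraries, and 99.8% of these deposited values are whole multiples of what 1 read is worth. Gene IDs were named with GENCODE M21 on GRCm38, and 10190 matched.

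Genes with at least 1 CPM in 3 libraries were tested with limma 3.58.1 (trend) on log2(CPM + 1), where 1 is the pseudocount, without a replicate term, and called at a Benjamini-Hochberg adjusted p of 0.05. With the pseudocount, log2 fold changes of low genes come out too small, whereas fold differences in the text are ratios of mean CPM. The reads recovered from the CPM steps were tested with edgeR 4.0.16, DESeq2 1.42.0 and limma-voom as alternatives. By edgeR 5655 genes (56.5%) were called, against 5667 by limma. Single ratios and shares used exact permutation tests in scipy 1.17.1.

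The 5 genes, the 14 gene lists and their tests were chosen with earlier results of these data known. Of each list the text names 2 to 4 tested genes with the smallest p and those that moved against the majority, together with close paralogs and the 3 nearest profiles. Cnn1, Smtn, Des, Actg2, the light chain genes, Cald1, Srf, Mrtfb, Pdgfrb, Col1a1, Col3a1, Fn1 and Tgfb1 were named after their values were seen, as were the family shares, the promoter motifs and the check of row order. The allele that the animals carry and 1 gene near the profile of Mylk are not reported here.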

Additional observations from a re-analysis of the deposited data

How the results depend on the processing

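Acta2, Tagln, Myh11, Mylk and Postn kept their direction and their call under all alternatives run for each: other scalings, pseudocounts and filters, edgeR, DESeq2 and limma-voom on recovered reads, a replicate block, and leaving out each library in turn. The fit without the rows out of alphabetical order covers only Mylk and Postn. It drops the rows of Acta2, Tagln and Myh11, so their calls were not checked by it. The log2 fold change ranged from 1.47 to 1.603 for Acta2, from 1.39 to 1.50 for Tagln, from 1.37 to 1.53 for Myh11, from -0.34 to -0.21 for Mylk (largest adjusted p 0.016) and from -0.58 to -0.37 for Postn (0.0077). Deviations of same-numbered libraries did not correlate (r of -0.007, -0.019 and 0.012). No shift shared by number was thus seen, though these correlations cannot exclude a pairing of small effect. With the replicate block 5603 genes were called, and the fold changes of the 5 genes were as without it (1.54, 1.45, 1.44, -0.26 and -0.50). The log2 ratio of Acta2 to Tagln differed by 0.09 between groups, from -0.02424 to 0.176 when 1 library was left out, the negative value being without the first control. Myh11 to Tagln differed by -0.01, from -0.06536 to 0.06527, and turned positive without the first control (0.03561) or the third SD library (0.06527). Over all genes the count of calls ran from 4633, without the rows out of alphabetical order (1824 higher and 2809 lower of 8992, an alternative chosen after seeing the data), to 5685. List counts stayed within 1.5 times in 267 of 280 pairs of list and alternative. Most pairs that moved came from leaving out the rows out of alphabetical order. Called genes then fell from 19 to 9 in the contractile list and from 13 to 6 in the SRF list. They fell from 12 to 5 in the pericyte list, from 14 to 8 in the endothelial list and from 14 to 0 in the ciliated list. The striated muscle, airway and mesothelial lists moved too, and the other lists stayed within 1.5 times there. With 3 libraries a group, no exact test of a single ratio can go below 0.10.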

Other observations

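Striated muscle genes were also present in these tumour libraries and divided in direction. Of 17 tested genes 8 were higher and 5 lower in SD, beside 28.1% higher and 28.5% lower over all tested genes. With the rows out of order left out, 3 of 12 were higher and 5 lower, against 20.3% and 31.2% of all such genes. The summed level of the list ran from 732 to 756 CPM in Ctrl and from 563 to 600.4 CPM in SD. The cardiac myosin heavy chains Myh7 and Myh6 were 2.13-fold (limma adjusted p = 2.2e-18) and 2.51-fold (2.9e-17) lower, whereas the atrial light chain gene Myl7 was 2.36-fold higher (2.9e-11), as was Actc1 by 2.85-fold. Also lower were Acta1, Myh2 (3.41-fold, 0.0038) and Tnni2 (1.53-fold, 0.043), and the call of Tnni2 was lost under several alternatives. Myh7 and Myh6 lie in alphabetical order in the table, and Myl7 and Actc1 do not.

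Among the higher genes of the lists used here, 10 of 14 contractile, 7 of 10 SRF and mesenchyme, 7 of 9 pericyte and all 14 ciliated genes sat out of alphabetical order. The shares were lower for matrix (4 of 6), striated muscle (5 of 8), TGF-beta (4 of 7), endothelial (6 of 13), light chain (4 of 12) and nonmuscle genes (2 of 7). For comparison, 903 out-of-order genes beyond the first 60 rows were called higher. With those 60 rows left out, 2752 genes in all were called higher. No lower gene of any of the 14 lists sat out of order. The out-of-order genes had a median ratio of SD to Ctrl of 2.77, against 0.943 for genes in order, and 770 of the 953 were in alphabetical order among themselves.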
